A study of Mus musculus with 16 samples.

Results

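The genes described here are 36 genes of the unfolded protein response and of protein folding in the endoplasmic reticulum (ER), of 15156 genes in the table. They were chosen by name, all 36 were present, and all 36 passed the filter on low values (at least 10 normalized counts in at least 4 libraries, which 14220 genes passed). They fall into 4 branches: 15 chaperones and folding enzymes, 8 genes of ER-associated degradation, 7 genes of the ATF4/CHOP branch, and 6 stress sensors, ER-linked transcription factors and Ufm1. When unfolded proteins accumulate in the ER, the chaperone BiP (Hspa5) leaves the lumenal side of the sensors IRE1 (Ern1), PERK (Eif2ak3) and ATF6. IRE1 splices the Xbp1 mRNA and ATF6 is cleaved to a transcription factor, and both raise chaperones and degradation genes, while PERK slows translation and favours synthesis of ATF4, which acts on amino acid and stress genes. Acinar cells of the pancreas make digestive enzymes in bulk and carry a very large ER, and XBP1 is known to be needed for it in mice.

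RNA came from whole pancreas of mice with chronic pancreatitis, induced by caerulein, a peptide that mimics cholecystokinin and acts on acinar cells. Every mouse received it at 50 ug/kg in 4 hourly injections on each of 3 days a week for 3 weeks, was 6 to 10 weeks old at treatment, and was collected 5 days after the last dose. The 16 libraries formed 4 genotypes of 4 animals each. DMC mice had floxed alleles of both Daxx and Men1 (Daxx fl/fl, Men1 fl/fl) together with the Pdx1-Cre transgene. MC mice had Men1 fl/fl with Pdx1-Cre, and DC mice had Daxx fl/fl with Pdx1-Cre. WT mice were wild type, and their label names no Cre, so that Cre itself is not controlled for. Pdx1-Cre acts in the pancreatic epithelium, and the stroma, vessels and immune cells in the tissue keep both genes. Pancreas without caerulein was not analysed here.

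Libraries held 13481063 to 23728309 reads, of which the 36 genes took 0.954% to 1.52%. Men1 averaged 168 ± 10.6 normalized counts in DMC, 132 ± 13.3 in MC, 482 ± 61.9 in DC and 368 ± 61.3 in WT (SD, n = 4 each), whereas Daxx overlapped between DMC (160 to 225) or DC (212 to 245) and WT (195 to 346). Markers of the labelled tissue were present: Cpa1, a carboxypeptidase of acinar cells, had at least 311058 normalized counts in every library, and 29 acinar enzyme and 13 acinar identity genes were detected in all 16. Gastric gland genes differed between the genotypes, with a level (mean of the genes' log2 values, centred on 0 over the 16 libraries) of 0.90 to 3.61 in DMC, 1.24 to 3.65 in MC, -3.52 to -1.61 in DC and -2.90 to -1.47 in WT. The part of this difference in the results below was not tested. Plasma and B cell genes were highest in WT replicates 2 and 3, at 1.90 and 2.39. The kit kept strand, but whether the counting used it is not given, and exons share bases with other genes in Hsp90b1 (10.3% with a gene on the other strand), Manf (8.85%), Eif2ak3 (8.05%) and Ddit3 (6.13% on the same strand), so their counts are uncertain to that extent.

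Of the 36 genes, 1 passed the test in 1 of the comparisons (limma with Benjamini-Hochberg adjustment over all 14220 genes, threshold 0.05): Herpud1, a gene of ER-associated degradation, fell in MC against DC. No member passed in DMC against WT, where limma called 0.591% of all genes higher and 0.197% lower, in MC against WT (0.485% higher, 0.295% lower) or in DC against WT (0.0211% higher, 0% lower). None passed in DMC against DC (0.267% of all genes in each direction), in DMC against MC (0.00703% higher, 0% lower) or for the interaction of Daxx and Men1 loss (0% in each direction). In MC against DC the 1 gene is 2.78% of the members, beside 0.781% of all genes called lower. At an unadjusted p under 0.05, limma gave 5 members lower in DMC against WT, 13.9% of them beside 4.11% of all genes. It gave 3 lower in MC against WT (5.24% of all genes) and 1 higher (7.51% of all genes), and 1 higher in DC against WT (7.47% of all genes). In MC against DC it gave 3 lower (7.05% of all genes) and 1 higher (6.67% of all genes). In DMC against DC 7 were lower, 19.4% of the members beside 6.03% of all genes, in DMC against MC 2 (2.38% of all genes), and for the interaction 1 (4.61% of all genes). At that p none was higher in DMC against WT (8.43% of all genes), DMC against DC (7.21%), DMC against MC (3.19%) or for the interaction (3.52%), and none was lower in DC against WT (4.24%).

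Below the threshold, the members lay mostly lower in DMC than in WT. Of the 36, 31 had a negative log2 difference, with a median of -0.27 against -0.02 for all genes tested. In 7 of them every DMC library was below every WT library, 19.4% of the members beside 3.02% of all genes, and in none was every DMC library above WT (5.19% of all genes). These were the chaperone genes Hspa5, Hsp90b1, Creld2, Manf and Hyou1, the degradation gene Derl1 and the sensor gene Ern1. The 7 genes were read in the same 8 libraries, so these are not 7 separate observations. No member had DC wholly below WT (1.77% of all genes), DMC wholly above DC (3.55%), or DMC wholly above or below MC (2.14% and 1.86%). In MC against WT 27 members were negative with a median of -0.10, and in DC against WT 27 with a median of -0.12. These 3 comparisons share the WT libraries. Without WT replicates 2 and 3 the medians were -0.41 in DMC, -0.23 in MC and -0.21 in DC, with 32, 30 and 28 members negative. That left only WT replicates 1 and 4 as reference. Their levels of acinar identity genes were 0.64 and 0.44, against -0.01 and -0.20 in the omitted replicates 2 and 3. The direction in DC depended on the fit: with the clock level described below as a term, 15 of 36 were negative (median 0.02), and with library quality weights 6 (median 0.06). With the label number set, also described below, as a term the median in MC was -0.28, with 31 negative. The shift in DMC against WT was not particular to the members. There, 11 of 13 acinar identity genes were negative with a median of -0.41, and 22 of 29 acinar enzyme genes with a median of -0.35. DMC lay wholly below WT in 15.4% and 10.3% of these 2 lists. Whole pancreas was sequenced, so fewer cells of a type and less RNA per cell cannot be told apart.

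**Figure D1:**
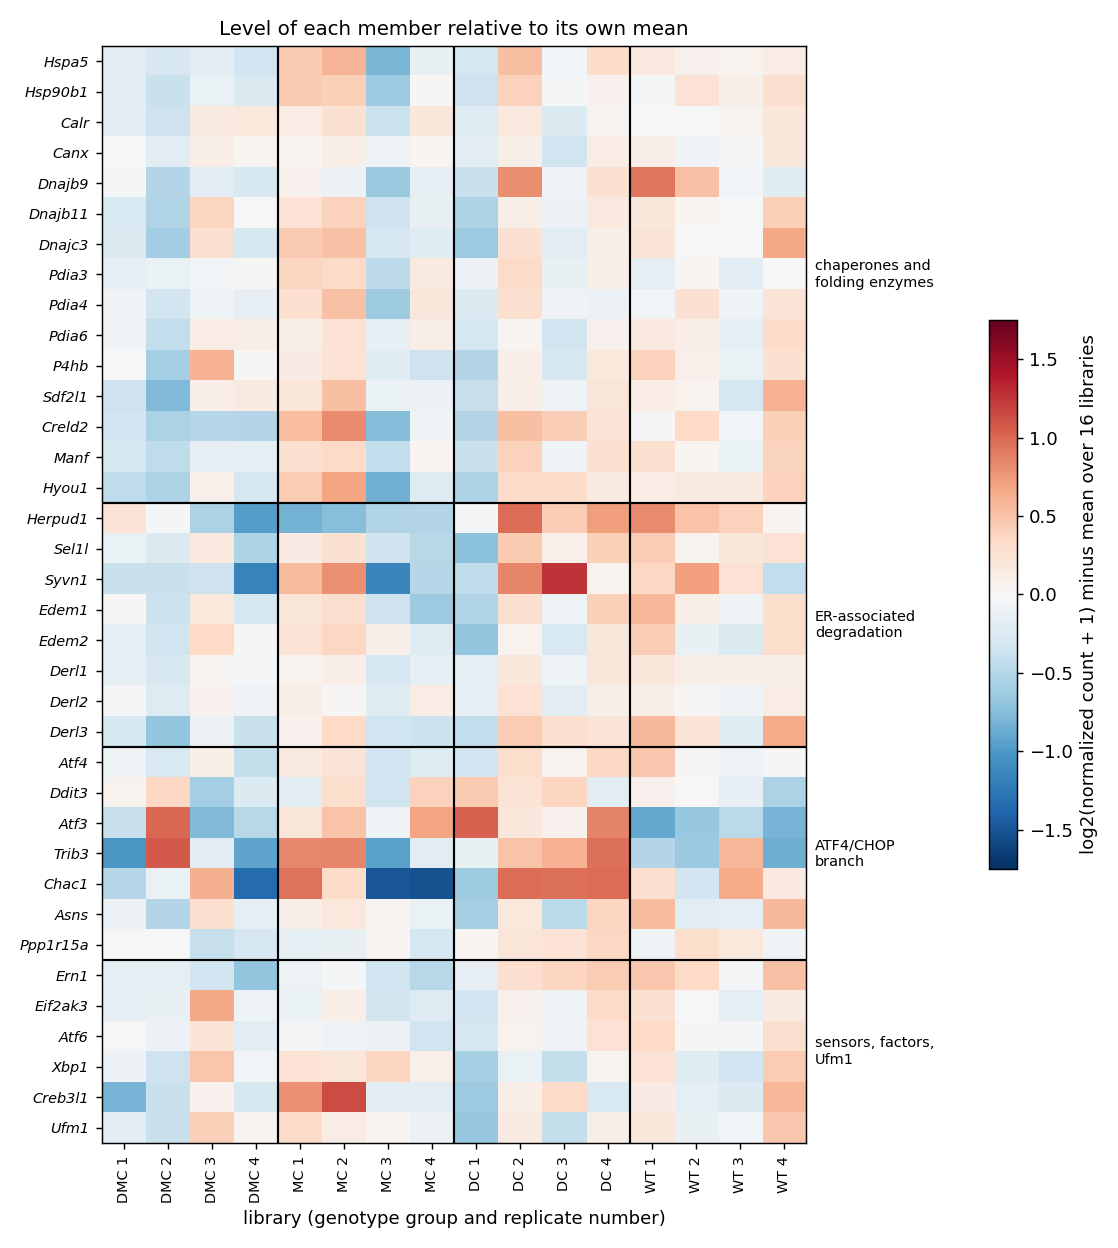
Level of each of the 36 genes (rows, grouped by branch) in each of the 16 libraries (columns, DMC, MC, DC and WT, replicates 1 to 4), as log2(normalized count + 1) less the gene's mean over all libraries. Blue marks a low level: most chaperone rows are blue in DMC 2, MC 3 and DC 1, and the Herpud1 row is blue in all 4 MC libraries.

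Of the chaperones and folding enzymes, 0 of 15 passed in any comparison by limma. Their median log2 difference was -0.33 in DMC against WT, -0.08 in MC against WT and -0.14 in DC against WT, with 14, 12 and 13 of the 15 negative. The branch level per library (mean over the 15 genes of the log2 value less its mean over libraries) ran from -0.44 to 0.04 in DMC, -0.46 to 0.39 in MC, -0.38 to 0.30 in DC and -0.05 to 0.29 in WT. MC libraries were split, with 0.29 and 0.39 in replicates 1 and 2 and -0.46 and -0.04 in replicates 3 and 4. Single libraries weighed on these medians. Leaving out DMC replicate 2 gave a median of -0.19 in DMC against WT, and leaving out WT replicate 4 gave -0.20. For MC against WT, omission of 1 library at a time gave -0.20 (MC replicate 2 omitted) to 0.09 (MC replicate 3 omitted), and 0.02 with WT replicate 4 omitted. For DC against WT the same gave -0.22 (DC replicate 2 omitted) to -0.04 (DC replicate 1 omitted).

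Promoters of this branch are known for the ER stress response element (ERSE, which is CCAAT, then any 9 bases, then CCACG, read on both strands), bound by NF-Y on one side and by ATF6 or XBP1 on the other. The shorter ERSE-II, ATTGG and CCACG with any 1 base between them, is related to it. In windows from 250 bases before to 50 after the start (RefSeq, GRCm38.p6), found for 31 of the 36 genes, ERSE was present in 9 and ERSE-II in 2, against 0.119% and 0.0365% of 32851 promoters. A gene was counted when any of its promoters matched, while these percentages are of single promoters. The members were chosen by name and the element is known for such genes, so the excess is no separate finding. The 9 were Hspa5, Hsp90b1, Calr, Canx, Dnajc3, Pdia6 and Creld2 of the chaperones and Syvn1 and Derl3 of the degradation genes, and ERSE-II was in Dnajb11 and Herpud1. The UPR element TGACGTGG was in 0 of the 31, against 0.676% of promoters. Shown first are stretches around the element of the abundant chaperone Hspa5 (chr2:34771995-34772073, plus strand) and of Creld2 (chr15:88819490-88819568, plus strand), the chaperone with the lowest DMC values relative to WT. Capitals mark the ERSE, which in Creld2 lies on the opposite strand.
Hspa5: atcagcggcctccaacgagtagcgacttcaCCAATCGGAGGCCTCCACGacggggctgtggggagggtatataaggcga
Creld2: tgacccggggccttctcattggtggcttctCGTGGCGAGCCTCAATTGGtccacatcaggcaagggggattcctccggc
The 11 genes with ERSE or ERSE-II were negative in 11 of 11 in DMC against WT with a median of -0.39, and the 20 other members with a promoter in 15 of 20 with a median of -0.20. In MC against WT these were 11 of 11 with a median of -0.09, and 12 of 20 with a median of -0.08. A match describes letters in the window and does not show binding.

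Creld2, a disulfide isomerase-like protein secreted under ER stress, had across replicates 1 to 4 1803, 1556, 1615 and 1588 normalized counts in DMC, 3306, 4031, 1341 and 2170.4 in MC, 1588, 3267, 3078 and 2663 in DC, and 2244, 2903, 2209 and 3036 in WT. All 4 DMC libraries were below all 4 WT libraries, while MC and DC spanned both. The log2 difference was -0.65 ± 0.28 (SE) in DMC against WT (limma adjusted p = 0.349), -0.04 in MC against WT (limma adjusted p = 0.968) and -0.01 in DC against WT (limma adjusted p = 0.994). DMC was also below DC (-0.64, limma adjusted p = 0.338) and MC (-0.61, limma adjusted p = 0.887), with overlap in both.

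Hspa5, which encodes the master chaperone BiP and was added after its values were seen, had 20085, 18727, 20207 and 18022 normalized counts in DMC, 31512, 34595, 13175 and 21079.5 in MC, 18524, 33258, 22213 and 28778 in DC, and 25946, 24135, 24073 and 25110.3 in WT. DMC and WT were each narrow and did not overlap, and MC held both the highest and the lowest library of the study. The log2 differences from WT were -0.37 ± 0.25 in DMC, -0.08 in MC and 0.01 in DC (limma adjusted p = 0.575, 0.929 and 0.991).

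Dnajb9, an HSP40 cochaperone that returns BiP to IRE1, had 1167, 833, 1044 and 978 normalized counts in DMC, 1246, 1102, 757 and 1074 in MC, 906, 2082, 1135 and 1431 in DC, and 2268, 1693, 1149.5 and 1019 in WT. The 2 high WT libraries were replicates 1 and 2, and WT overlapped DMC and MC through replicates 3 and 4. Differences from WT were -0.55 ± 0.26 in DMC, -0.50 ± 0.26 in MC and -0.14 ± 0.26 in DC (limma adjusted p = 0.405, 0.447 and 0.886).

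Manf, a secreted neurotrophic factor of the ER that responds to stress, had 2251, 2016, 2483 and 2433 normalized counts in DMC, 3331, 3446, 2021 and 2793 in MC, 2090.3, 3635, 2589 and 3356 in DC, and 3327, 2796, 2521 and 3576 in WT. DMC lay below WT without overlap, the nearest values being 2483 in DMC and 2521 in WT. The differences from WT were -0.40 ± 0.19 in DMC, -0.09 in MC and -0.09 in DC (limma adjusted p = 0.391, 0.880 and 0.900).

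P4hb, the protein disulfide isomerase with the highest mean count of this branch, had 44215, 29211, 67816 and 44812 normalized counts in DMC, 48908, 52719, 38091 and 34619.9 in MC, 31019.9, 47917, 36570.1 and 50206 in DC, and 58825, 47130.1, 40886 and 53314 in WT. The groups overlapped throughout, with both extremes in DMC. Its differences from WT were -0.16 in DMC, -0.21 in MC and -0.29 in DC (limma adjusted p = 0.827, 0.778 and 0.709).

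The 10 other genes of the branch gave log2 differences from WT of -0.51 to 0.01 in DMC, -0.20 to 0.19 in MC and -0.34 to 0.14 in DC. Hyou1, a nucleotide exchange factor for BiP, averaged 9040 ± 1839 normalized counts in DMC and 12754 ± 1208 in WT (-0.51, limma adjusted p = 0.464), and Hsp90b1, which encodes the chaperone GRP94, 10545 ± 809 in DMC and 13859 ± 1321 in WT (-0.39, limma adjusted p = 0.458). For both, DMC and WT did not overlap. The nearest to WT in DMC were the oxidoreductase Pdia3 (0.01) and the lectin chaperones Canx (-0.06) and Calr (-0.12). The J-domain genes Dnajc3 and Dnajb11 had -0.43 and -0.26, Sdf2l1, a partner of J-domain proteins, -0.33, and the isomerases Pdia4 and Pdia6 -0.25 and -0.17, all overlapping WT.

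**Figure D2:**
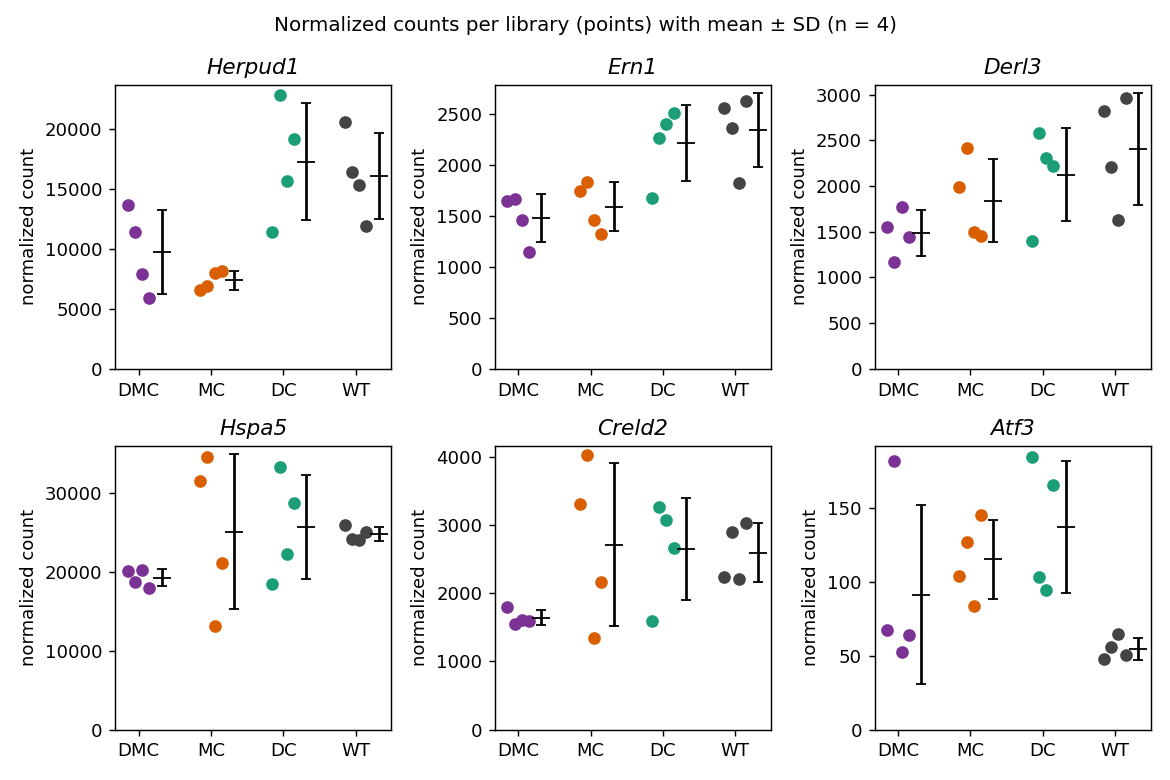
Normalized counts of 6 members per library (points, replicates 1 to 4 from left to right) in DMC, MC, DC and WT, with the mean and SD beside them (n = 4). Hspa5, Creld2 and Ern1 show no overlap between DMC and WT, and Herpud1 shows none between MC and either DC or WT.

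In the degradation branch Herpud1 fell in MC against DC and the other 7 genes did not pass in any comparison by limma. The branch recognises misfolded proteins in the ER, moves them through a membrane channel and ubiquitinates them. Its median log2 difference was -0.38 in DMC against WT, -0.32 in MC against WT and -0.13 in DC against WT, with 8, 7 and 6 of 8 negative. All 4 DMC branch levels (-0.43 to -0.02) were below all 4 WT levels (0.04 to 0.44). MC (-0.39 to 0.18) and DC (-0.40 to 0.44) overlapped WT. By single genes, 1 of the 8 (12.5%) had DMC wholly below WT, beside 3.02% of all genes. No share over all genes was computed for a branch level, and in every other branch DMC and WT levels overlapped. The median of MC against WT was -0.19 without MC replicate 3 and -0.18 without replicate 4, and that of DC against WT was 0.01 without DC replicate 1.

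Shown next are promoter stretches of the 3 degradation genes with an element of ERSE type, all on the plus strand: Herpud1 (chr8:94386287-94386417), Syvn1 (chr19:6046502-6046575) and Derl3 (chr10:75893212-75893290). Capitals mark the elements: in Herpud1 first a CARE, the element read by ATF4 and its partners (TGATGNAA, both strands), here on the opposite strand, and then the ERSE-II. In Syvn1 they mark an ERSE and in Derl3 an ERSE on the opposite strand.
Herpud1: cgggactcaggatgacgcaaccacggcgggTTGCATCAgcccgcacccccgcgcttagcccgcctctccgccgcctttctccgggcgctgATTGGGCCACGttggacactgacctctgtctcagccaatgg
Syvn1: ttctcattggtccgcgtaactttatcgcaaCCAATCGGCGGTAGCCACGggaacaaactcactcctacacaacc
Derl3: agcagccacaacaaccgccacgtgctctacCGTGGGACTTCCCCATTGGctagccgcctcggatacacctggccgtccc
Herpud1 was the 1 member whose window held both an ERSE-type element and a CARE.

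Herpud1, a ubiquitin-like membrane protein that organises the degradation complex (chromosome 8, 94386438 to 94395377, GRCm38), had 13673, 11386, 7889 and 5941 normalized counts in DMC, 6536, 6891, 8006 and 8120.2 in MC, 11431, 22787, 15616 and 19123 in DC, and 20580.5, 16373, 15333 and 11866 in WT. Every MC library was below every DC library, as in 4.29% of all genes, and below every WT library, as in 3.23%. DMC spanned the gap between them, with replicates 3 and 4 at the level of MC and 1 and 2 above it. The means were 9722 ± 3466 in DMC, 7388 ± 794 in MC, 17239 ± 4854 in DC and 16038 ± 3589 in WT (SD, n = 4). MC was at 44.1% of DC in the fit, a log2 difference of -1.18 ± 0.25 (SE, limma adjusted p = 0.0313). Against WT the difference of MC was -1.10 ± 0.25 and did not pass (limma adjusted p = 0.0535, with 0.00157 to 0.595 over the alternatives, 9 of which passed). The exact two-sided permutation test of the mean gave p = 0.0286 for both, the smallest that 70 assignments allow. DMC had -0.77 against WT (limma adjusted p = 0.206) and -0.85 against DC (limma adjusted p = 0.158), DC had 0.09 against WT (limma adjusted p = 0.931), and DMC had 0.33 against MC (limma adjusted p = 0.976). The call of MC against DC was lost on leaving out DC replicate 2, 3 or 4 or any MC replicate (limma adjusted p = 0.0542 to 0.109, log2 difference -1.23 to -1.03).

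Derl3, a channel component of the degradation machinery that is abundant in secretory cells, had 1556, 1172, 1770.03 and 1447 normalized counts in DMC, 1991, 2411, 1492 and 1458 in MC, 1398, 2575, 2310 and 2215 in DC, and 2816, 2211, 1629 and 2958 in WT. DMC was lowest as a group and overlapped WT through WT replicate 3 and DMC replicate 3. Its differences from WT were -0.67 ± 0.22 in DMC (limma adjusted p = 0.214), -0.38 in MC (limma adjusted p = 0.505) and -0.18 in DC (limma adjusted p = 0.817). Plasma cells also express Derl3, and the level of 17 plasma and B cell genes, Derl3 among them, ranged from -1.44 to 1.35 in DMC, -1.43 to 0.29 in MC, -0.69 to 1.16 in DC and -1.52 to 2.39 in WT. That level was lowest in WT 1 and highest in WT 3, while Derl3 was high in WT 1 and lowest of WT in WT 3.

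Syvn1, which encodes the ubiquitin ligase HRD1, had 1015, 1016, 1032 and 590.3 normalized counts in DMC, 1949.6, 2315, 602 and 939 in MC, 978, 2409, 3194 and 1397 in DC, and 1722, 2186, 1582 and 990.4 in WT. DMC was low and even in 3 libraries with replicate 4 lower still, and MC, DC and WT each held at least 1 library at that low level. The differences from WT were -0.81 ± 0.42 in DMC, -0.30 in MC and 0.21 in DC (limma adjusted p = 0.444, 0.809 and 0.894), and DMC had -1.02 against DC (limma adjusted p = 0.309).

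Sel1l, the adaptor that holds HRD1, had 30774, 27902, 37574 and 22946 normalized counts in DMC, 36692, 40060.8, 25886 and 23719 in MC, 20235, 45939, 35288 and 44388 in DC, and 44888, 34818, 38232 and 39553 in WT. Only DMC replicate 3 reached the WT range in DMC, and DC replicate 1 was the lowest library of all. The differences from WT were -0.42 in DMC, -0.35 in MC and -0.17 in DC (limma adjusted p = 0.519, 0.599 and 0.842).

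The remaining degradation genes differed less. Derl1, also of the derlin channel family, averaged 1304 ± 131 normalized counts in DMC and 1524 ± 48.6 in WT without overlap (-0.23, limma adjusted p = 0.420). Edem1 and Edem2, which trim mannose from misfolded glycoproteins, and Derl2 had differences from WT of -0.35, -0.12 and -0.10 in DMC, -0.36, 0.03 and -0.03 in MC, and -0.21, -0.26 and -0.04 in DC.

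The ATF4/CHOP branch was the one that lay higher in DC, at a median log2 difference of 0.37 against WT with 5 of 7 positive, and 0 of 7 passed in any comparison by limma. That median dropped to 0.20 when WT replicate 2 was omitted, to 0.24 when WT replicate 4 was, to 0.25 when DC replicate 2 or 4 was, and to 0.0197 with the clock level as a term. DESeq2 called 1 of the 7 genes, Atf3, higher in DC, in a comparison where it called 1.99% of all genes. The median was -0.26 in DMC against WT and -0.13 in MC against WT, with 4 of 7 negative in each. The branch level was -0.55 to 0.22 in DMC, -0.45 to 0.32 in MC, -0.02 to 0.53 in DC and -0.22 to 0.08 in WT, so that DC and WT overlapped through DC replicate 1. A CARE was found in 5 of the 31 members with a promoter, against 3.97% of single promoters. The 5 were Atf3, Trib3, Chac1 and Asns of this branch and Herpud1. As with ERSE, the members were chosen by name, so this share is no separate finding. Stretches are shown for Atf3 (chr1:191183406-191183473, minus strand), Chac1 (chr2:119351019-119351086, plus strand) and Asns (chr6:7693210-7693262, minus strand), with the CARE in capitals, on the opposite strand in Atf3 and Chac1.
Atf3: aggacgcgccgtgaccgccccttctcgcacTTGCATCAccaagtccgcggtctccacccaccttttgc
Chac1: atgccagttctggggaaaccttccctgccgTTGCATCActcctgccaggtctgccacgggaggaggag
Asns: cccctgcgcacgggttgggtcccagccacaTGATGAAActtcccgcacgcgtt
The 5 genes with a CARE had median log2 differences of -0.30 in DMC, -0.13 in MC and 0.38 in DC against WT.

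Atf3, a stress-induced transcription factor downstream of ATF4, had 67.4, 181, 52.3 and 64.0 normalized counts in DMC, 104, 127, 83.9 and 145 in MC, 184, 103, 94.6 and 165 in DC, and 47.7, 56.1, 64.5 and 50.5 in WT. Every DC and every MC library was above every WT library, a pattern that 3.72% and 4.16% of all genes showed, while DMC replicates 1 and 2 were above WT and replicates 3 and 4 within its range. The log2 differences from WT were 0.55 ± 0.33 in DMC (limma adjusted p = 0.515), 1.04 ± 0.33 in MC (limma adjusted p = 0.179) and 1.26 ± 0.33 in DC (limma adjusted p = 0.152). The exact permutation p was 0.0286 for MC and for DC against WT. By DESeq2 on the recovered reads Atf3 passed in DC against WT (adjusted p = 0.0267) and not in MC against WT (adjusted p = 0.0992), and with the clock level as a term the difference of DC was 0.64. The interaction, the DMC difference less the sum of the MC and DC differences, was -1.74 ± 0.47 (unadjusted p = 0.00183, limma adjusted p = 0.385), and without DMC replicate 2 it was -2.13.

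Ppp1r15a, which encodes GADD34, the phosphatase subunit that ends the PERK signal, had 247, 246, 185 and 200.1 normalized counts in DMC, 218, 224, 251 and 197 in MC, 251, 285, 293 and 314 in DC, and 232, 303, 279 and 234 in WT. All 4 DMC and all 4 MC libraries were below DC, with DC replicate 1 and MC replicate 3 nearly level. That pattern was shown by 2.8% and 4.29% of all genes. The log2 difference from DC was -0.38 ± 0.13 in DMC (limma adjusted p = 0.231) and -0.36 ± 0.13 in MC (limma adjusted p = 0.223).

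Chac1, a glutathione-degrading enzyme induced by ATF4, had 231, 304, 506 and 129 normalized counts in DMC, 636, 413, 116 and 114 in MC, 214, 647, 645 and 647 in DC, and 405, 259, 516 and 370.04 in WT. MC held the highest library outside DC and the 2 lowest libraries of all, and DC replicate 1 stood far below the other 3 DC libraries. Its differences from WT were -0.53 ± 0.55 in DMC, -0.63 ± 0.55 in MC and 0.38 ± 0.55 in DC (limma adjusted p = 0.725, 0.673 and 0.838).

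Asns, asparagine synthetase, had 5763, 4311, 7566 and 5549 normalized counts in DMC, 6634, 6993, 6370.4 and 5692 in MC, 4106, 7008, 4438 and 7998 in DC, and 9055, 5378, 5451 and 9136 in WT. WT held 2 high and 2 low libraries, and every group overlapped every other. The differences from WT were -0.30 in DMC, -0.13 in MC and -0.31 in DC (limma adjusted p = 0.620, 0.863 and 0.671).

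Atf4 itself averaged 2948 ± 460 normalized counts in DMC, 3237 ± 613 in MC, 3582 ± 743 in DC and 3572 ± 646 in WT, with differences from WT of -0.27, -0.14 and -0.01. Ddit3, which encodes the pro-apoptotic factor CHOP, averaged 131 ± 36.8 in DMC, 144 ± 35.9 in MC, 161 ± 30.4 in DC and 124 ± 22.8 in WT. Trib3, a pseudokinase that acts on CHOP and AKT, averaged 78.9 ± 60.4 in DMC, 98.1 ± 51.8 in MC, 114 ± 33.9 in DC and 66.2 ± 34.5 in WT. None of these 3 separated from WT in any group, and translation of ATF4 and splicing of Xbp1 are not visible in counts per gene.

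**Figure D3:**
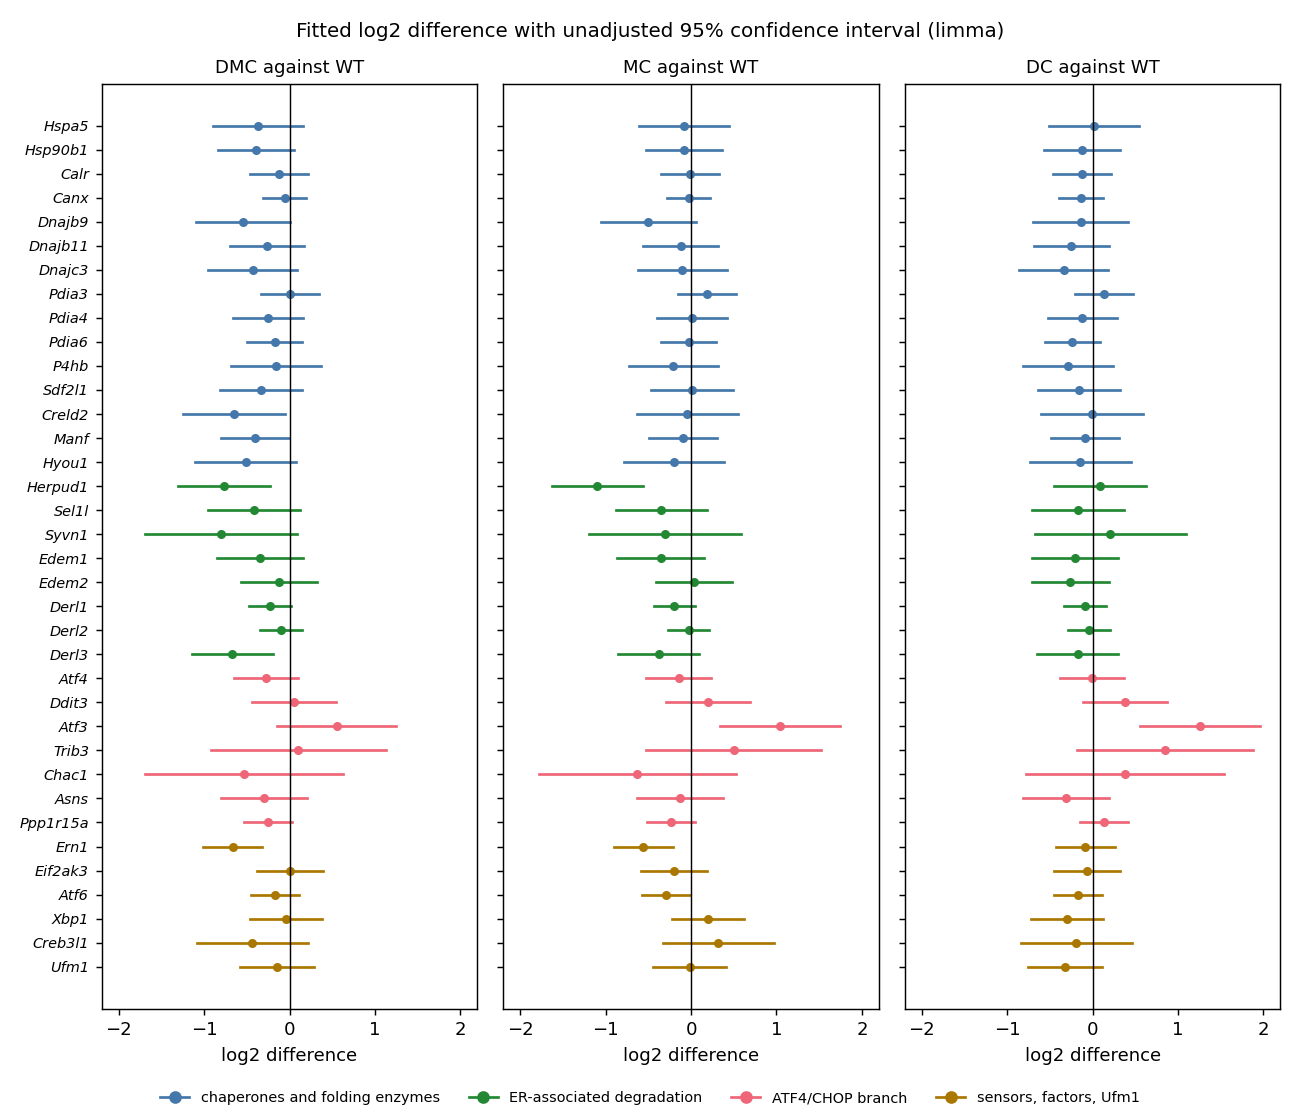
Fitted log2 difference from WT (points) with unadjusted 95% confidence intervals (lines) for each of the 36 genes in DMC, MC and DC, coloured by branch. Intervals lie below 0 for 5 genes in DMC and 3 in MC, with Ern1 and Herpud1 in both. The 1 interval above 0 in MC and in DC is that of Atf3. None of these differences passed the adjusted threshold by limma.

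Of the sensors, Ern1 lay lower in both genotypes with floxed Men1, short of the threshold. Ern1, which encodes the IRE1 kinase and nuclease (chromosome 11, 106394650 to 106487852), had 1647, 1665, 1463 and 1151 normalized counts in DMC, 1749.9, 1833.5, 1460.45 and 1324 in MC, 1683, 2264, 2409 and 2513 in DC, and 2558, 2368, 1828 and 2634 in WT. All DMC libraries were below all DC and all WT libraries, and MC overlapped WT through MC replicate 2 and WT replicate 3. The log2 difference from WT was -0.66 ± 0.16 in DMC (limma adjusted p = 0.0769), -0.56 ± 0.16 in MC (limma adjusted p = 0.133) and -0.08 ± 0.16 in DC (limma adjusted p = 0.887). From DC it was -0.58 in DMC (limma adjusted p = 0.133) and -0.47 in MC (limma adjusted p = 0.184). The exact permutation p was 0.0286 for DMC against WT and against DC, and 0.0571 for MC against WT. By DESeq2 on the recovered reads Ern1 passed in DMC against WT (adjusted p = 0.00849), in MC against WT (0.039) and in DMC against DC (0.0316). Over all alternatives the adjusted p ran from 0.00849 to 0.288, from 0.039 to 0.590 and from 0.00992 to 0.692 in these 3 comparisons.

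Xbp1, whose spliced form is the factor made through IRE1, had 5429, 4559, 8192 and 5647 normalized counts in DMC, 7001, 6782, 7590.3 and 6232 in MC, 3912, 5390.1, 4370 and 6076 in DC, and 6987, 5029, 4641 and 7963 in WT. MC lay above DC without overlap (0.50 ± 0.20, limma adjusted p = 0.265), as did 4.65% of all genes, and both overlapped WT. Its differences from WT were -0.05 in DMC, 0.20 in MC and -0.30 in DC (limma adjusted p = 0.946, 0.725 and 0.602).

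Creb3l1, an ER-anchored factor that acts on secretory and matrix genes, had 208, 279, 385 and 301 normalized counts in DMC, 642, 814, 323 and 319.9 in MC, 236, 397, 464 and 304 in DC, and 405, 327, 309 and 548 in WT. MC replicates 1 and 2 were the highest of the study, and the other groups overlapped. The difference was -0.75 ± 0.31 in DMC against MC (limma adjusted p = 0.805), and from WT -0.43 in DMC, 0.32 in MC and -0.19 in DC (limma adjusted p = 0.587, 0.712 and 0.860).

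Eif2ak3 (PERK) averaged 4674 ± 1415 normalized counts in DMC, 3938 ± 523 in MC, 4358 ± 845 in DC and 4537 ± 591 in WT. Atf6 averaged 2565 ± 341 in DMC, 2345 ± 230.4 in MC, 2569 ± 405 in DC and 2882 ± 368 in WT. Ufm1, the ubiquitin-like modifier that ufmylation attaches at the ER, averaged 1743 ± 431 in DMC, 1874 ± 245 in MC, 1555 ± 421 in DC and 1912 ± 376 in WT. These 3 genes overlapped between all groups, with log2 differences from WT of -0.17 to 0.01 in DMC, -0.29 to -0.02 in MC and -0.32 to -0.07 in DC. In MC against WT, 2 of the 6 branch genes, Ern1 among them, were lower at an unadjusted p under 0.05 by limma. That is 33.3%, beside 5.24% of all genes.

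Herpud1 also moved with a number in the sample labels and with clock genes. Each label holds a 4-digit number, whose meaning is not given. It was 6995 or above in all 4 MC libraries, DMC replicates 3 and 4 and WT replicate 4, and 6986 or below in the other 9, among them all of DC. The labels mark no cut between 6986 and 6995. It was placed there for this description, so differences between the 2 sets depend on that choice. A level of clock genes was computed per library by averaging log2 values of Per3, Tef, Dbp, Nr1d2 and Nr1d1 and subtracting the average of Nfil3, Npas2 and Arntl. It was -0.79 to -0.18 in the 7 libraries with high numbers and 0.31 to 3.58 in the 9 with low numbers. Herpud1 had 5941 to 11866 normalized counts in the high set and 11386 to 22787 in the low set. Among high numbers, Herpud1 had 7889 and 5941 in DMC and 6536 to 8120.2 in MC, against 11866 in the single WT library. Among low numbers, it had 13673 and 11386 in DMC and 11431 to 22787 in DC, against 15333 to 20580.5 in WT. In both sets DMC was below WT, and in the high set MC was below WT, with 1 to 4 libraries a group. The single WT library of the high set, at 11866, was also the lowest of WT. The cause of these differences was not tested. The label number entered the fit as a term of 2 levels, high set or low set. With it, the log2 difference of Herpud1 was -0.59 in DMC against WT (limma adjusted p = 0.246), -0.55 in MC against WT (limma adjusted p = 0.595) and -0.46 in MC against DC (limma adjusted p = 0.999). With the clock level as a term, MC against DC was -0.53 (limma adjusted p = 0.99998). MC and DC share no label number set, so for the 1 call genotype and label number cannot be told apart. None of the 36 members, Herpud1 included, separated the 2 sets without overlap.

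**Figure D4:**
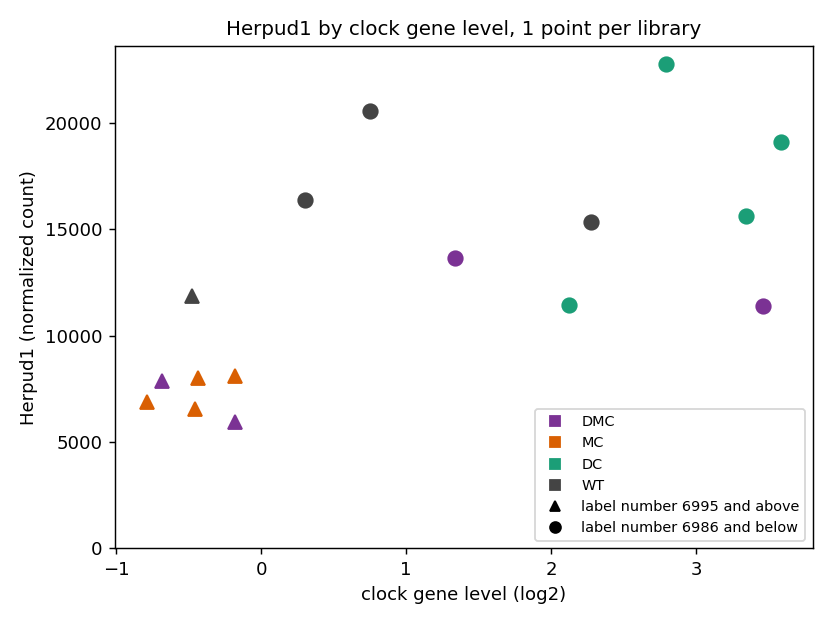
Herpud1 (normalized count) against the clock gene level (log2) for the 16 libraries, coloured by genotype, with triangles for label numbers of 6995 and above and circles for 6986 and below. The 7 triangles lie at clock levels below 0 and Herpud1 counts of at most 11866.

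Levels of some branches were low where the acinar level of a library was low. The level of 13 acinar identity genes other than enzymes was -0.50 to 0.49 in DMC, -0.30 to 0.35 in MC, -0.75 to 0.18 in DC and -0.20 to 0.64 in WT. DC replicate 1, the lowest in acinar identity at -0.75, was also lowest for the sensor branch (-0.44) and had a chaperone level of -0.38 and a degradation level of -0.40. In DMC, replicate 2 was lowest and replicate 3 highest both in acinar identity (-0.50 and 0.49) and in the chaperone level (-0.44 and 0.04). MC replicate 3 went against this, with an acinar level of -0.0039 and a chaperone level of -0.46. The ATF4/CHOP branch did not follow it in DMC, where replicate 2 was highest, at 0.22. In DC, replicate 1 was lowest in the ATF4/CHOP level too, at -0.02. With the acinar level as a term in the fit, added after seeing the data, 27 of 36 members were negative in DMC against WT (median -0.11), 20 in MC against WT (median -0.02) and 5 in DC against WT (median 0.11), so that the direction in DC turned. Genes in that list, among them Bhlha15, Erp27 and Nupr1, are themselves linked to ER function or stress. Fibroblast and stellate cell genes, 16 of 16 positive against WT in each genotype, had levels of -0.54 to 0.23 in DMC, -0.19 to 0.38 in MC, -0.14 to 0.98 in DC and -0.55 to -0.29 in WT. The part of cell content in these results was not tested.

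**Figure D5:**
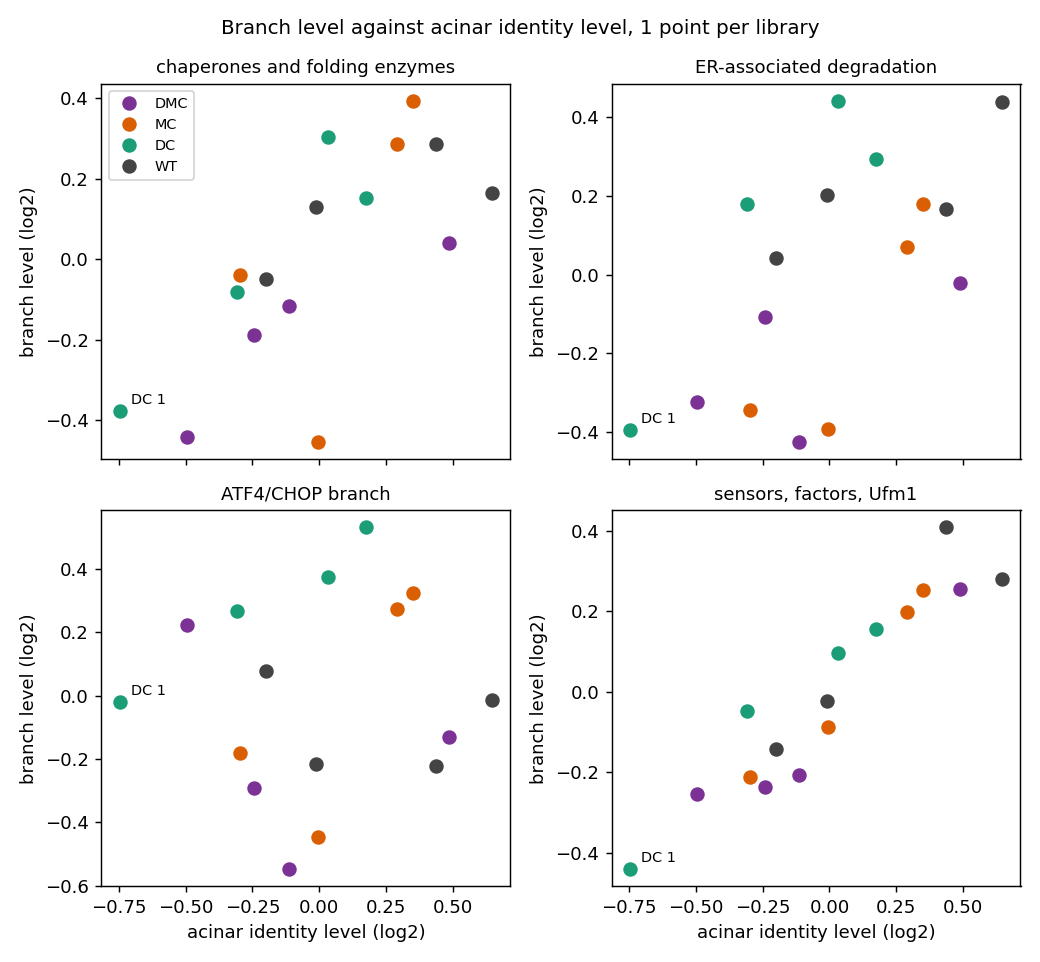
Branch level (mean log2 value less its mean over libraries, y axis) against the acinar identity level (x axis) for each of the 16 libraries, 1 panel per branch, coloured by genotype. DC 1 lies at the left in every panel, at an acinar level of -0.75, and is the lowest library in the panel of sensors, factors and Ufm1, at -0.44.

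Other genes of the pathway, 196 tested in 5 lists, gave 2 calls over the 7 comparisons, 0.146% of 1372 tests beside 0.5% of the tests of all genes. Both were lower and both were in the PERK and ATF4 list. Slc7a3, a cationic amino acid transporter, had 61.9, 59.5, 137 and 39.3 normalized counts in DMC and 267, 198, 159 and 269 in WT, with no overlap, and fell in DMC (-1.69 ± 0.32, limma adjusted p = 0.0245). Ddit4, an inhibitor of mTORC1 induced by stress and by glucocorticoids, had 299, 405, 619 and 501 in MC and 1008, 842, 752 and 1086 in DC, with no overlap, and fell in MC against DC (-1.05 ± 0.19, limma adjusted p = 0.0144). That is the comparison in which label number sets and genotypes coincide. The list of 50 PERK and ATF4 genes had a median of -0.24 in DMC against WT with 41 negative, against -0.10 with 34 in MC and -0.15 with 40 in DC.

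In the other 4 lists no gene passed. The 36 further degradation genes had medians of -0.15 in DMC, -0.08 in MC and -0.13 in DC against WT, and the 46 ER import and export genes -0.14, -0.07 and -0.15. The 40 further folding and glycan genes had -0.03, 0.01 and -0.12, and the 24 other regulators -0.038, -0.0043 and -0.00046. Among those with the smallest p were Dnajc10, an ER disulfide reductase (0.45 in DMC against WT, limma adjusted p = 0.128), Fkbp14, a prolyl isomerase for collagens (0.68 in DC against WT, limma adjusted p = 0.271), and Casp12, an ER-associated caspase (0.83 in DC against WT, limma adjusted p = 0.139). Of the further degradation genes these were Ube2g2, a ubiquitin-conjugating enzyme (-0.42 in MC against DC, limma adjusted p = 0.223), and Ubxn8, which tethers the p97 ATPase to the ER (-0.45 in MC against WT, limma adjusted p = 0.272). Srp14, a subunit of the signal recognition particle, had 0.32 in DMC against DC (limma adjusted p = 0.214). Ern2, the IRE1 paralogue of mucous epithelia, had 18.2, 132, 15.68 and 79.5 normalized counts in DMC, 57.6, 22.2, 36.4 and 131 in MC, 4.28, 2.49, 1.14 and 1.10 in DC, and 35.4, 0, 0.816 and 0 in WT. DC was below every DMC and MC library, and WT replicate 1 was within their range, while the 2 counts of 0 in WT allow up to 2.71 and 3.29 normalized counts. The difference from WT was 3.92 ± 1.006 in DMC (limma adjusted p = 0.103) and 4.16 ± 1.006 in MC (limma adjusted p = 0.0616), beside gastric gland levels that were higher in the same 2 genotypes. Sec16b, of the ER exit sites, had 1.36 ± 0.34 in MC against WT (limma adjusted p = 0.0692).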

How the data were processed

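Per the labels' protocols, total RNA from pancreas of 16 mice was made into stranded libraries. Per the submitters' processing notes, the authors used STAR 2.6.0b, GRCm38 and DESeq2; the counter and annotation release were not given in the sources used. Deposited was a normalized count signal per gene, scaled by the authors with 1 size factor for each library. All values of a library (100%) were whole numbers of reads once divided by its smallest step (tolerance 0.01 reads), which gave 13481063 to 23728309 reads per library and size factors of 0.566 to 1.63. No library repeated another (within a genotype, chi-square over its degrees of freedom was at least 8.08).

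Log2(normalized count + 1) of the 14220 genes with at least 10 in at least 4 libraries was fitted with limma 3.58.1 (trend) in R 4.3.3, all 16 libraries in 1 fit and 1 coefficient per genotype. Contrasts were adjusted by Benjamini-Hochberg over all genes tested, two-sided, threshold 0.05. Fold changes are on that log2 scale. Alternatives were a pseudocount of 10, no filter, TMM and quantile scaling, edgeR 4.0.16 and DESeq2 1.42.0 on recovered reads, only the groups compared, quality weights, a replicate block and leaving out each library. Added after seeing the data were leaving out WT replicates 2 and 3, and the label number, clock level or acinar level as a term. The count tests were also tested on simulated data.

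The members and gene lists were chosen with earlier results of these data known. Described per library were members past the threshold and, in each branch, the 3 with the smallest p over the 3 comparisons with WT and the most abundant. Of the other lists, members past the threshold were named or, where there were none, the 2 with the smallest p. Values of 0 allow up to 3 reads, for counting error only. Gene positions are from GENCODE M21, in which 15152 of 15156 identifiers were found (versions ignored). Promoters are from RefSeq (GRCm38.p6), matched for 31 members and not for 5.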

Additional observations from a re-analysis of the deposited data

Results flagged for a closer look

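In 160 groups of 4 libraries, 1 library stood apart from the other 3 beyond Dixon's 95% critical value in 7. Chance flags about 1 in 20 groups. In DMC, replicate 4 had 590.3 normalized counts of Syvn1, against 1015 to 1032 in the other 3. DMC replicate 3 had 6794 of Eif2ak3, against 3909 to 4062, and a sensor branch level of 0.26, against -0.25 to -0.21. DC replicate 1 had 214 of Chac1, against 645 to 647 in the other DC libraries. In WT, replicate 4 had 14558 of Hyou1, against 12001 to 12275, and replicate 1 had 1596 of Derl1, against 1495 to 1511, and 4531 of Atf4, against 3125 to 3316.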

How the results depend on the processing

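Of the 36 members, 1 passed in MC against DC and 0 in each other comparison. With DESeq2 on recovered reads the count was 2 in MC against WT, 5.56% of members beside 2.75% of all genes. It was 2 in DMC against DC (5.56% beside 2.43%) and 1 in DMC against WT (2.78% beside 2.33%). It was also 1 in DC against WT (2.78% beside 1.99%) and in MC against DC (2.78% beside 3.52%). DESeq2 also called more of all genes, for instance 331 against 112 in DMC against WT. With library quality weights the count was 1 in DMC against WT (2.78% beside 1.72%) and in MC against WT (2.78% beside 1.86%). It was 9 in DMC against DC (25% of members beside 11.6% of all genes) and 2 in MC against DC (5.56% beside 7.26%). In MC against WT, 1 passed with quantile normalization, with only the groups compared and with the acinar level as a term, each time Herpud1. With the acinar level that was 2.78% beside 2.13% of all genes, and 2 passed in DMC against DC (5.56% beside 1.86%). Leaving out single libraries gave 0 to 1 in DMC against WT, MC against WT, DMC against DC and MC against DC. For these fits, for quantile normalization and for only the groups compared, the share of all genes called is not given here. Whether calls there rose for all genes is thus left unstated. In MC against DC the count was 0 with the label number or the clock level as a term. DMC against MC and the interaction stayed at 0 members in every alternative run, with 2 and 1 at an unadjusted p under 0.05 by limma, by edgeR and by DESeq2; only the groups compared was not run for the interaction.

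Replicate numbers did not pair the libraries: same-numbered libraries of different genotypes correlated from -0.371 to 0.384 (median -0.0283), and 1 of 16 correlated best with its own number. With a replicate block MC against DC had 0 members past the threshold (Herpud1 adjusted p = 0.0657), and the count over the other pathway lists was 1.

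Of 12 branch medians against WT, 6 changed sign under alternatives other than leaving out single libraries. With the acinar level as a term these were DC chaperones (0.08), DC degradation (0.13), DC sensors (0.05), MC chaperones (0.0081) and DMC sensors (0.03). With quality weights they were DC chaperones (0.04), DC degradation (0.11), DC sensors (0.0057) and MC ATF4/CHOP (0.02), and with the clock level DC chaperones (0.05). On leaving out single libraries 2 changed sign, DC degradation (-0.21 to 0.01) and MC chaperones (-0.20 to 0.09). The ATF4/CHOP median in DC against WT was 0.0197 with the clock level, and the sensor median in MC against WT -0.39 with the label number. The count of 2 over the other pathway lists was 14 with DESeq2, 30 with quality weights and 12 with the acinar level. It was 1 with the label number or the clock level, and 1 to 5 on leaving out single libraries. DESeq2, quality weights and the acinar level also called more of all genes in every comparison. In DMC against WT they called 2.33%, 1.72% and 0.865% of all genes, against 0.788% in the unchanged limma fit. In MC against DC they called 3.52%, 7.26% and 2.03%, against 1.37%. A rise in calls was thus not particular to these lists. For these changes the cause was not tested. Depth was at least 13481063 reads a library; how far depth or the number of animals limits precision was not tested.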
